A study of Mus musculus with 34 samples.

Results

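Postnatal day 7 (P7) was compared with postnatal day 3 (P3) in whole mouse cornea, with 3 arrays at each age. These 6 arrays were taken by their age labels from a series of 34 that follows the wild-type CB6 cornea from the embryo to old age on Affymetrix gene arrays. Per the labels, corneas were cut from the globe and freed of surrounding tissue, and the RNA was amplified from the whole cornea with its epithelium, stroma and endothelium together. Both ages fall before the eyelids open. By their labels the groups share strain, genotype and tissue and differ in age. Whether the 3 arrays of an age stem from different animals is not stated in the labels, so the spread behind each p-value may be technical. That spread is the one among arrays of the same age, estimated over all 32 whole-cornea arrays of 12 ages and not over these 6 alone. The time of day at which corneas were taken is not given in the sources used here.

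The cornea is the clear front of the eye. Its outer layer is a stratified epithelium that makes keratin 12 and very large amounts of a few soluble enzymes, called corneal crystallins, which take part in detoxification and are thought to help keep the tissue clear. Beneath it lies a stroma of regular collagen fibrils and small leucine-rich proteoglycans made by keratocytes, and the inner face is a single layer of endothelium that pumps ions and water out of the stroma. In the mouse the layers are laid down before birth and mature behind closed lids in the first weeks of life.

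The markers of the labelled tissue were present on the 6 arrays. Krt12, the keratin of corneal epithelium, read 1750 to 10420 in intensity, the unit of the deposited values, and Kera, the stromal proteoglycan keratocan, read 5270 to 8622. The median intensity lay between 212.8 and 236.4. Across all genes, log2 values correlated with r of 0.944 to 0.966 between arrays of the same age and 0.887 to 0.929 between the ages. P7 replicate 2 stood apart in 2 ways. It alone had low Xist, the RNA of the inactive X chromosome, with 66 against 4693 or more on the other arrays. It alone had high Y-linked Eif2s3y, with 1432 against 51.5 or less. By these genes it read as male and the other arrays as female, so the ages also differed in sex makeup. P7 replicate 2 also had the lowest Col1a1, the main stromal collagen chain, with 2532 against 6159 and 6667 on the other P7 arrays. P3 replicate 3 had the highest level of retina genes, described with the genes that fell. In whole tissue, fewer cells of a type and less RNA per cell cannot be told apart.

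A gene was called when limma's moderated test gave an adjusted p under 0.05 (Benjamini-Hochberg over 12998 genes) and the difference was at least 1 on the log2 scale of intensity + 16. By this rule 257 genes were called (1.98% of those tested), 175 higher at P7 (1.35%) and 82 lower (0.631%). In 253 of them the 3 P7 arrays lay wholly above or wholly below the 3 P3 arrays, a separation seen in 34.8% of all genes tested. At an unadjusted p under 0.05, limma gave 2474 higher (19%) and 1085 lower genes (8.35%). The median difference of all genes was 0.06. P7 replicate 2 was the highest P7 array in 135 of the 175 higher genes (77.1%, against 36.7% of all genes), and P3 replicate 3 was the highest P3 array in 59 of the 82 lower genes (72%, against 32.6%). The part of these arrays in the counts was measured by leaving them out: without P7 replicate 2 there were 124 higher and 52 lower genes, and without P3 replicate 3 there were 161 higher and 39 lower genes. The lower count was also 51 without P7 replicate 1.

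The largest rises were those of the membrane-bound serine protease Tmprss11d and the aldehyde dehydrogenase Aldh3a1. Among the 15 named genes with the largest rise were 4 genes of the Tmprss11 family, the crystallin enzyme Aldh3a1 and the alcohol dehydrogenase Adh7. The secreted Ly6 proteins Lypd2 and Slurp1 and the metabolic enzymes Cyp2b19, Ces1d, Gsta3 and Car3 were also among them. The other 3 were Angptl7, a secreted angiopoietin-like protein, Nostrin, an adaptor of nitric oxide synthase, and Mgarp, a mitochondrial protein. The choice of these 15 required that the ages not overlap, so the separation reported for them below adds no support.

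**Figure D1:**
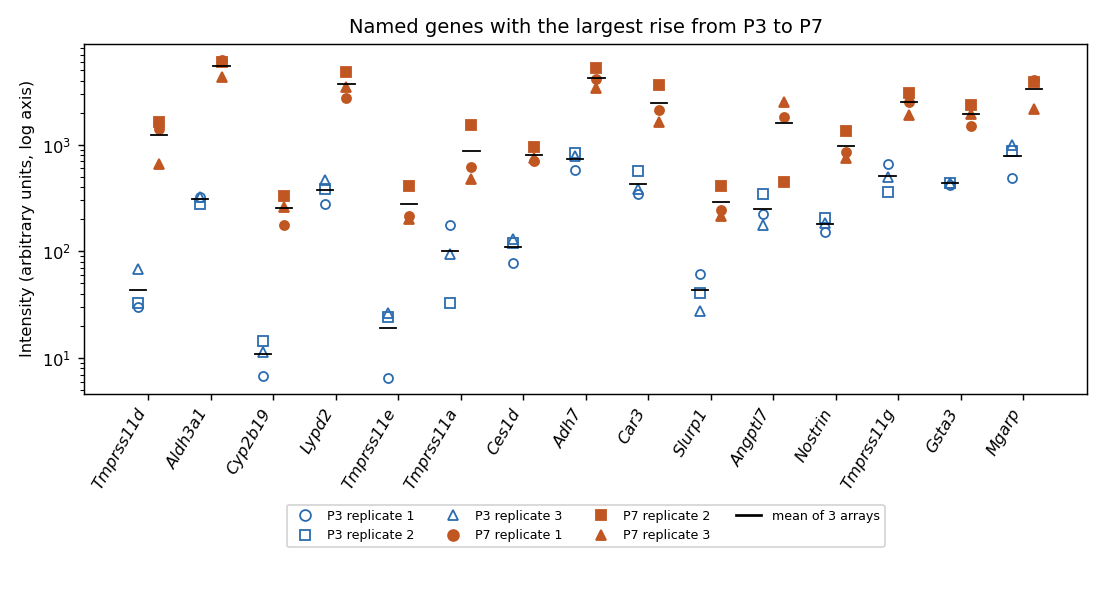
Intensity (log axis) of the 15 named genes with the largest rise, on each of the 3 P3 arrays (open symbols) and 3 P7 arrays (filled symbols), with bars at the means. The P7 arrays lie above the P3 arrays for every gene shown, as the rule that chose these genes required. The largest fitted differences are those of Tmprss11d (4.35) and Aldh3a1 (4.07), and Angptl7 has 1 low P7 array.

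The corneal crystallin and detoxifying enzymes held 7 higher and 0 lower genes among 18 tested, with a median difference of 0.68 against 0.06 over all genes. Aldh3a1, the most abundant of these crystallins in the mouse, read 325, 281 and 326 at P3 and 6250, 5932 and 4361 at P7. All 3 P7 arrays were far above all 3 P3 arrays, and the rise was 4.07 log2 units (SE 0.18, adjusted p = 2.3e-13). Adh7, an alcohol dehydrogenase that also oxidises retinol, read 583, 842 and 782 at P3 and 4124, 5248 and 3420 at P7, a rise of 2.50 (SE 0.31, adjusted p = 1.9e-05). Tkt, the pentose phosphate enzyme transketolase, read 818, 877 and 767 at P3 and 2876, 3506 and 2697 at P7, a rise of 1.86 (SE 0.18, adjusted p = 2.5e-07). Neither gene overlapped between the ages. The remaining 4 called members were the carbonyl reductase Cbr2 with 1.69, Aldh1a7 with 1.51, the quinone reductase Nqo1 with 1.39 and Aldh1a1 with 1.16. The count of 7 was the same without each of the 6 arrays in turn.

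A further 2 enzyme families with at least 3 called members are described here. The Galnt family also had 3 called members and was mixed: Galnt4 rose by 1.18 and Galnt18 by 1.23, while Galnt13 fell by 2.33. The symbol stems Slc, Atp and Fabp had called members in both directions and Fam only higher ones. These stems are not described as families. Of 5 alcohol dehydrogenases tested, 3 were higher and 0 lower: Adh1 rose by 1.33 and Adh6b by 1.20 beside Adh7. Adh1 was already abundant, with 3098, 3191 and 3059 at P3 and 7846, 8638 and 7086 at P7. Adh6b missed the threshold when any array other than P7 replicate 3 was left out, with adjusted p from 0.0504 to 0.13 by limma. Of 8 carboxylesterases tested, which cleave esters and amides, 4 were higher and 0 lower: Ces1d rose by 2.71, Ces1e by 1.81, Ces2g by 1.32 and Ces2f by 1.13. Ces1d read 78.6, 119 and 131 at P3 and 697, 943 and 747 at P7, without overlap. Ces2f and Ces2g lost the call without P7 replicate 2, at differences of 0.94 and 1.17. Gsta3, a glutathione transferase, read 423, 440 and 440 at P3 and 1498, 2359 and 1942 at P7, a rise of 2.09 (SE 0.25, adjusted p = 1.4e-05). Cyp2b19, a cytochrome P450 of keratinising epithelia that acts on arachidonic acid, read 6.78, 14.3 and 11.4 at P3 and 176, 328 and 263 at P7. Its P3 values lay at or below the offset of 16, so its difference of 3.31 (SE 0.29, adjusted p = 9.7e-08) understates the ratio.

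The surface proteases and their inhibitors held 7 higher and 0 lower genes among 25 tested, with a median of 0.46. The Tmprss11 genes encode serine proteases anchored in the membrane of stratified and airway epithelia. They lie side by side on chromosome 5 in the RefSeq order Tmprss11c, d, a, g, f, b and e (GRCm38.p6). Of the 6 tested, 5 rose. Tmprss11d read 29.9, 32.6 and 68.8 at P3 and 1419, 1650 and 661 at P7, a rise of 4.35 (SE 0.33, adjusted p = 6.3e-09). Tmprss11e read 6.54, 24.2 and 26.2 at P3 and 214, 411 and 203 at P7, a rise of 3.05 (SE 0.25). Tmprss11g, which was higher at P3 with 660, 364 and 493, reached 2522, 3045 and 1915 at P7, a rise of 2.28 (SE 0.22). In these genes the lowest P7 array was well above the highest P3 array. Tmprss11a rose by 2.95 (SE 0.51) and Tmprss11b by 1.67 (SE 0.28).

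Tmprss11f, which lies between Tmprss11g and Tmprss11b, was not called. It read 378, 187 and 173 at P3 and 213, 410 and 278 at P7, with overlapping arrays and a difference of 0.31 (95% interval -0.25 to 0.87, adjusted p = 0.482). From E17.5 to P3 the same gene rose by 1.79 (adjusted p = 0.00033 by limma), whereas Tmprss11d gave -0.17 (adjusted p = 0.77) in that step. Of the inhibitors, Serpinb1a rose by 1.61, Serpinb5 (maspin) by 1.32 and Spink5, an inhibitor of kallikrein proteases, by 1.01. Spink5 read 165, 115 and 183 at P3 and 212, 621 and 248 at P7, so P7 replicate 2 was far above the others. Without that array its difference was 0.55 (adjusted p = 0.192 by limma), and without P3 replicate 2 it was 0.83 (adjusted p = 0.115).

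Among the mucins, Ly6 proteins and other surface genes 4 of 23 rose and 0 fell, with a median of 0.46. Lypd2, a Ly6 family protein, read 280, 388 and 467 at P3 and 2719, 4830 and 3491 at P7, a rise of 3.22 (SE 0.26, adjusted p = 1.9e-08). Slurp1, a secreted member of the same family that restrains inflammation of the ocular surface, read 60.8, 40.6 and 27.6 at P3 and 245, 411 and 214 at P7, a rise of 2.36 (SE 0.46, adjusted p = 0.00224). Aqp5, the water channel of corneal epithelium, read 80.4, 137 and 128 at P3 and 542, 421 and 495 at P7, a rise of 1.96 (SE 0.30). None of these genes overlapped between the ages, which the choice of the largest rises required of Lypd2 and Slurp1. Ceacam1, an adhesion protein, rose by 1.34, and it lost the call without P3 replicate 2 (1.07, adjusted p = 0.0662 by limma) or P3 replicate 3 (1.14, adjusted p = 0.0532). The membrane mucins Muc4 and Muc1 had differences of 0.91 and 0.89 and were not called (adjusted p = 0.0586 and 0.0506). The count in this list was 7 without P3 replicate 1, which had the highest P3 value of Ceacam1, Muc4 and Muc1.

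Keratins held 3 higher and 0 lower genes among 19 tested, with a median of 0.38. Krt12 read 1750, 2383 and 2226 at P3 and 9058, 10420 and 6793 at P7, without overlap, a rise of 2.03 (SE 0.19, adjusted p = 1.8e-07). At E17.5 it had been 5071 ± 1605 (SD, n = 3), and it fell by 1.22 from E17.5 to P3 (adjusted p = 0.00038 by limma), so the rise began from a low at P3. Krt6b and Krt16, keratins of activated and hyperproliferative epithelium, rose by 1.14 and 1.23. Without P7 replicate 2 both lost the call, with differences of 0.96 and 1.13, which left Krt12 as the only called keratin; Krt16 also lost it without P3 replicate 2 (0.79) or P7 replicate 1 (1.19). The keratins of basal cells, Krt5 and Krt14, were abundant at both ages. Krt5 read 6559 to 7116 at P3 and 8121 to 9400 at P7, a difference of 0.38 (95% interval -0.27 to 1.03, adjusted p = 0.451). Krt14 differed by 0.54 (-0.19 to 1.28, adjusted p = 0.33).

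Among 21 epithelial transcription factors, whose median was 0.28, only Klf4, a factor of epithelial barrier differentiation, was called, with 354, 279 and 170 at P3 and 569, 817 and 476 at P7. Its rise of 1.19 (SE 0.33, adjusted p = 0.0237) did not pass without P3 replicate 2, P3 replicate 3, P7 replicate 1 or P7 replicate 2, where it lay between 0.91 and 1.25. Pax6, the factor that sets corneal identity, read 2565, 2627 and 2742 at P3 and 3130, 3845 and 2956 at P7, a difference of 0.31 (-0.20 to 0.82, adjusted p = 0.429). Ehf, an Ets factor of corneal epithelium, had a difference of 0.88 (adjusted p = 0.0394) and fell short of the required size. Of 27 junction genes 22 had a difference above 0, against 56.7% of all genes, and the median was 0.44. In this list 2 genes rose, the desmosomal cadherin Dsc3 by 1.23 and the tight junction protein Marveld3 by 1.11, and neither was called without P3 replicate 2, P3 replicate 3 or P7 replicate 2. Dsc3, which also lost the call without P3 replicate 1 or P7 replicate 1, was then between 0.96 and 1.26, and Marveld3 between 0.92 and 1.00. Of 25 basement membrane genes, with a median of 0.20, Lama3, a chain of laminin-332, rose by 1.20, with 608, 432 and 375 at P3 and 1046, 1106 and 1104 at P7. It missed the threshold without P3 replicate 2 (adjusted p = 0.0508 by limma) or P3 replicate 3 (0.0613).

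The stratified epithelium envelope genes moved in both directions, with 1 higher and 1 lower among 18. Ivl, the envelope precursor involucrin, rose by 1.40 (SE 0.36, adjusted p = 0.0157), from 100, 181 and 235 to 407, 602 and 385. Krtdap, a keratinocyte differentiation protein of skin, fell by 1.32 (SE 0.35, adjusted p = 0.0174), from 2792, 3933 and 4089 to 1351, 1833 and 1149. Both separated the ages on every array, in opposite directions. Ivl lost the call without P3 replicate 1 (1.08) or P7 replicate 2 (1.20), and Krtdap without P3 replicate 2, P3 replicate 3, P7 replicate 1 or P7 replicate 3 (between -1.28 and -1.17).

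In the EGF family 2 of 16 genes rose, both of them ligands: Epgn (epigen) by 2.09 (SE 0.39, adjusted p = 0.0016) and Nrg1 (neuregulin 1) by 1.48 (SE 0.40). Epgn read 108, 139 and 89.3 at P3 and 434, 872 and 372 at P7, while the arrays of Nrg1 overlapped, with 152 as the highest P3 and 120 as the lowest P7 value. Nrg1 was not called without P3 replicate 2 (1.02), P3 replicate 3 (1.40) or P7 replicate 2 (1.08). Of 21 retinoid and lipid carrier genes Fabp5, a fatty acid binding protein of keratinocytes, rose by 1.19 beside Aldh1a1. Without P7 replicate 2 Fabp5 gave 0.92 and only Aldh1a1 was called. Il18, an epithelial cytokine, rose by 1.56 among 21 defence genes. Psmb9, a subunit of the immunoproteasome, rose by 1.04 among 13 antigen presentation genes and lost the call without P3 replicate 2 (0.97) or P7 replicate 2 (0.87). Sgk1, a kinase induced by glucocorticoids, rose by 1.02 among 11 glucocorticoid response genes, and gave 0.83 and 0.77 without the same arrays.

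**Figure D2:**
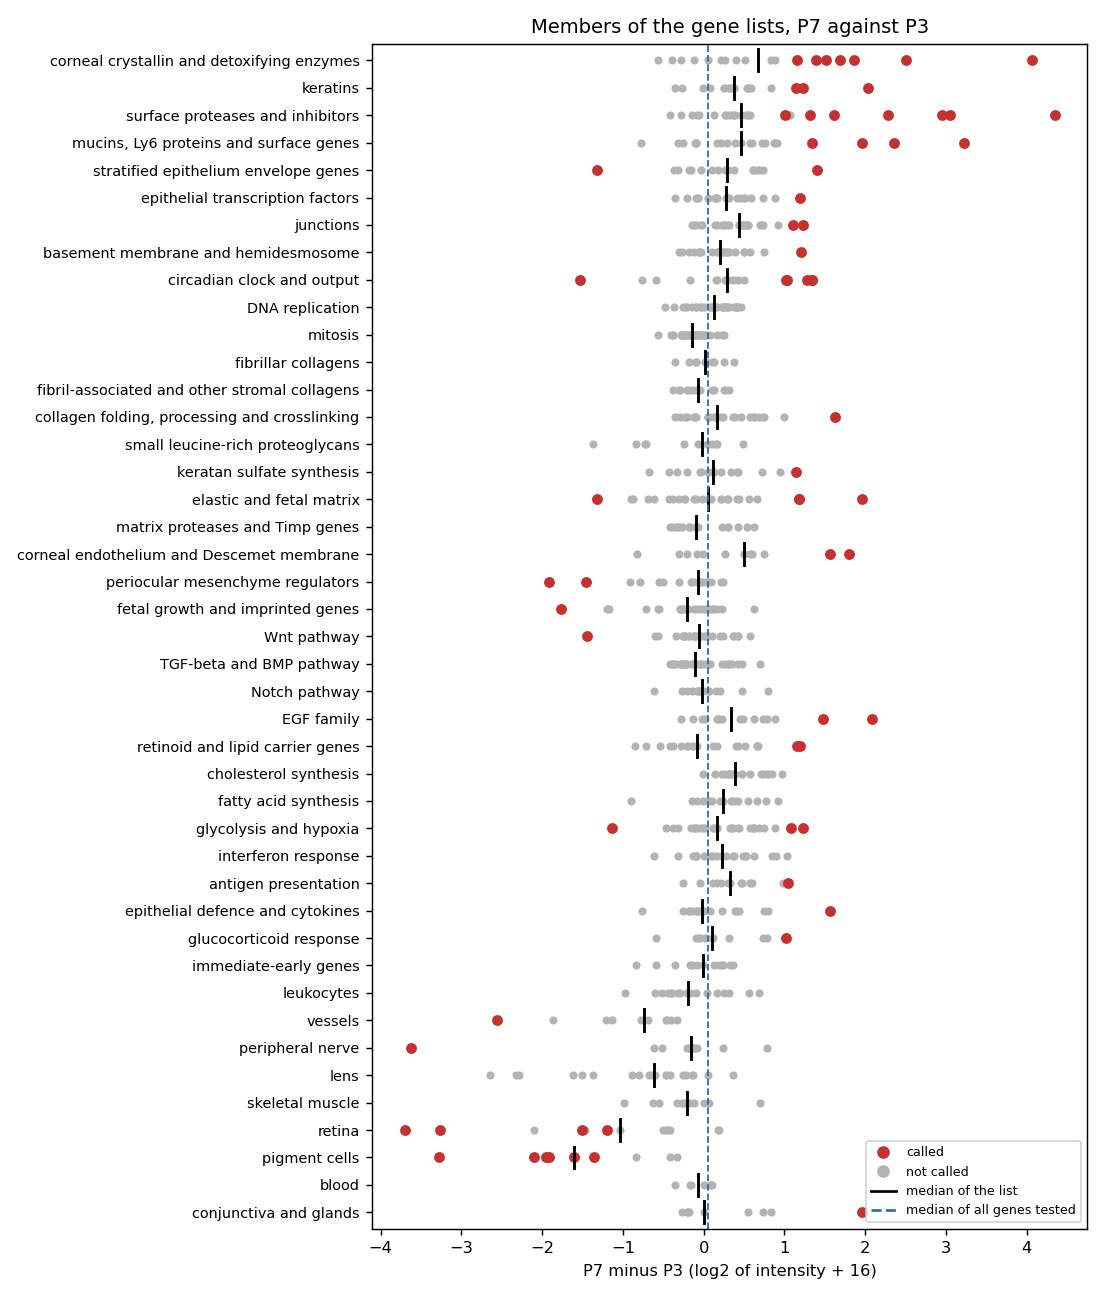
Difference from P3 to P7 (horizontal axis, log2 of intensity + 16) for each tested member of the gene lists named on the vertical axis, with called members in red, other members in grey, a black bar at the list's median and a dashed line at the median of all genes (0.06). Called members of the crystallin, keratin, surface protease and mucin lists lie to the right, those of the retina, pigment cell and vessel lists to the left, and the envelope list has 1 on each side. The fibrillar collagen, fibril-associated collagen, replication and mitosis lists have no called member.

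The circadian clock and its output genes held 5 higher and 1 lower among 18 tested, with a median of 0.29. The clock is a feedback loop in which Clock and Arntl drive the Per, Cry and Nr1d genes. Its output factors Dbp, Tef and Hlf activate genes at D-box elements, where Nfil3 represses. The activator Hlf read 981, 883 and 835 at P3 and 2315, 2471 and 2133 at P7, a rise of 1.34 (SE 0.15, adjusted p = 4.2e-06). Per3, a period gene, read 184, 182 and 143 at P3 and 450, 385 and 468 at P7, a rise of 1.28 (SE 0.14, adjusted p = 3.1e-06). Nfil3, the repressor, read 683, 525 and 639 at P3 and 224, 182 and 202 at P7, and fell by 1.53 (SE 0.34, adjusted p = 0.00595). Hlf and Per3 were thus higher and Nfil3 lower on every P7 array. Tef, the remaining activator, overlapped between the ages, with a difference of 0.27 (95% interval 0.02 to 0.53, adjusted p = 0.155).

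Dbp rose by 1.02 (SE 0.18, adjusted p = 0.00109), from 202, 183 and 124 to 381, 295 and 392. Nr1d1, a repressor of Arntl, rose by 1.03 (SE 0.27, adjusted p = 0.017), from 285, 349 and 305 to 753, 394 and 931, with P7 replicate 2 close to the P3 arrays. Bhlhe40, which represses at E-boxes, rose by 1.34 (SE 0.29, adjusted p = 0.00514). Dbp stood near the size threshold and gave 0.83 without P3 replicate 3, 0.96 without P7 replicate 1 and 0.94 without P7 replicate 3. Nr1d1 lost the call without each of these 3 arrays and without P3 replicate 1, at 0.78 to 1.01. The count of higher clock genes was then 3 without P3 replicate 3, P7 replicate 1 or P7 replicate 3. The core drivers and the other period genes were not called: Arntl differed by 0.28 (95% interval -0.25 to 0.80), Clock by 0.37 (adjusted p = 0.102), Per1 by 0.28 (-0.07 to 0.63) and Per2 by -0.17 (-0.42 to 0.09). Rora, which activates Arntl, differed by 0.42 (adjusted p = 0.0285) and the clock kinase gene Csnk1e by -0.59 (adjusted p = 0.0364), both short of the required size. Hlf was 1572 ± 352 (SD, n = 3) at E15.5, 912 ± 107 at E17.5 and 2656 ± 349 at P14.

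**Figure D3:**
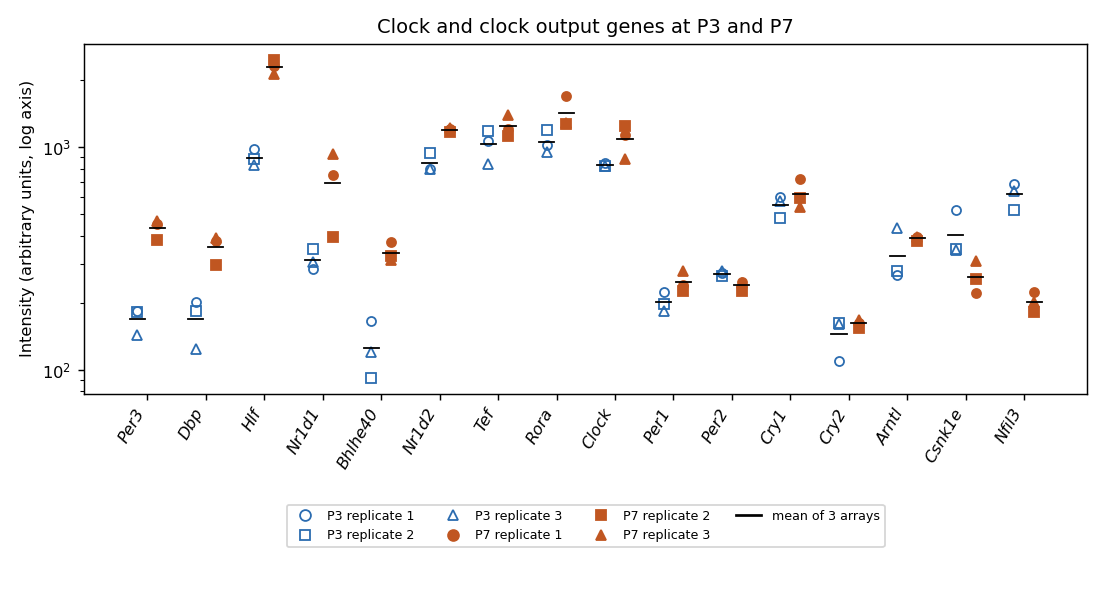
Intensity (log axis) of 16 clock and clock output genes on each P3 array (open symbols) and P7 array (filled symbols), with bars at the means. Hlf, Per3, Dbp, Nr1d1 and Bhlhe40 lie higher and Nfil3 lower on all 3 P7 arrays, while the arrays of Arntl and Cry1 overlap.

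The promoters of 3 called clock genes are shown because Dbp and Nfil3 act at D-boxes and the Per3 window holds such elements. Each window runs from 250 bases before to 50 bases after the RefSeq start (GRCm38.p6), 5′ to 3′ on the gene's strand. They are Per3 at chr4:151044616-151044915 (minus strand), Dbp at chr7:45704997-45705296 (plus strand) and Nfil3 at chr13:52980990-52981289 (minus strand). Capitals mark D-boxes (TTATGNAA) and CCAAT boxes (CCAAT, or ATTGG on the other strand); both strands were searched and no matches overlapped.
Per3: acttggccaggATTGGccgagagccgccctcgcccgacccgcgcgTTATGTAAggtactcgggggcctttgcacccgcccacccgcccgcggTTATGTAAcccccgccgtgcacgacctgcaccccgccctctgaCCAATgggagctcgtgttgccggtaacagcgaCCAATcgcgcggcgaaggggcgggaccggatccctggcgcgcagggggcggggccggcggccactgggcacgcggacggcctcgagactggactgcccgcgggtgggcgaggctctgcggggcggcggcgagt
Dbp: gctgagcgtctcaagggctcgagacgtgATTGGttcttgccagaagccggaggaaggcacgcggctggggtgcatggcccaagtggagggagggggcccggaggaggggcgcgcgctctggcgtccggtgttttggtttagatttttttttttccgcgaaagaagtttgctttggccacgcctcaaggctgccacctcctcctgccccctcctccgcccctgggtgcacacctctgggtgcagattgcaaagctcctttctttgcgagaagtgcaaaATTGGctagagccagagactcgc
Nfil3: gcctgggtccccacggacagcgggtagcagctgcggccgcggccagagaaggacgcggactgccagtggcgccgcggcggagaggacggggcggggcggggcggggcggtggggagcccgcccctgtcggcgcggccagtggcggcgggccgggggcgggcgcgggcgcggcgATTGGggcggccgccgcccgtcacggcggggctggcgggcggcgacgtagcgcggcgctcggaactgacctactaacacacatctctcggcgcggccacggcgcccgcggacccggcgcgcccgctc

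The Per3 window held 2 D-boxes, whose first bases lie 205 and 158 bases before the start, and 3 CCAAT boxes. Dbp had 2 CCAAT boxes and Nfil3 had 1, and neither had a D-box in this window. The windows of Hlf and Nr1d1, not printed, held no D-box, E-box or CCAAT box. A D-box was found in 2 of the 16 clock list members with a promoter (12.5%), in 7 of 127 called higher genes (5.5%) and in 2 of 65 called lower genes (3.1%), against 2.7% of all 10343 tested genes with a promoter. The E-box CACGTG was found in 5 of the 16 clock genes (31.2%), 11.8% of higher genes and 4.6% of lower genes, against 10.9% of all. CCAAT was found in 13 of the 16 clock genes (81.2%), against 42.1% of all. Over all 32851 windows of this length the shares were 3.4% for the D-box, 7.2% for the E-box and 37.4% for CCAAT. These matches describe the letters of the windows only.

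The corneal endothelium and Descemet membrane list held 2 higher and 0 lower genes among 13, with a median of 0.50. Slc4a11, a membrane transporter of the endothelium that is mutated in a hereditary corneal dystrophy, read 142, 208 and 141 at P3 and 620, 510 and 678 at P7, a rise of 1.80 (SE 0.29, adjusted p = 0.00049). Atp1b1, the beta subunit of the sodium pump, read 516, 492 and 827 at P3 and 1939, 2121 and 1392 at P7, a rise of 1.56 (SE 0.29, adjusted p = 0.00169). The ages did not overlap in either gene, although Atp1b1 is expressed in many cell types. Slc4a11 had been 74.3 ± 15.2 (SD, n = 3) at E17.5. Col8a1, a collagen of the Descemet membrane, overlapped between the ages, with a difference of 0.50 (95% interval -0.48 to 1.47, adjusted p = 0.522).

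Structural genes of the stroma showed no called change. Of 11 fibrillar collagens, 14 fibril-associated and other collagens and 12 small leucine-rich proteoglycans none was called by limma, and at an unadjusted p under 0.05 there were 0, 3 and 2 genes, all lower. At that level 19% of all genes were higher and 8.35% lower. The list medians were 0.02, -0.07 and -0.02. Kera read 5270, 6805 and 7823 at P3 and 8622, 6325 and 6978 at P7, a difference of 0.15 with a wide interval of -1.03 to 1.33. Lum (lumican) differed by 0.05 (-1.12 to 1.22). The intervals of both reach past 1 log2 unit in either direction. Col1a1 read 5045, 5353 and 3140 at P3 and 6159, 2532 and 6667 at P7, a difference of 0.10 (-0.70 to 0.90), with the lowest value on P7 replicate 2.

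Some matrix genes beside the fibrils did change. In the elastic and fetal matrix list 3 genes rose and 1 fell among 29, with a median of 0.05. Spon2, a secreted adhesion protein, read 462, 298 and 364 at P3 and 1110, 1550 and 1907 at P7, a rise of 1.96 (SE 0.21, adjusted p = 1.3e-06). Tgfbi, the adhesion protein that is deposited in several corneal dystrophies, read 1318, 953 and 771 at P3 and 2380, 2415 and 2023 at P7, a rise of 1.18 (SE 0.26). Smoc1, a calcium-binding matrix protein, rose by 1.18 (SE 0.23). Vcan, the fetal proteoglycan versican, fell by 1.32 (SE 0.42, adjusted p = 0.0428), from 798, 600 and 617 to 404, 141 and 294. Its adjusted p lay between 0.0571 and 0.238 by limma without any array other than P7 replicate 1. Papss2, which makes the sulfate donor used for keratan sulfate, rose by 1.14 (SE 0.19, adjusted p = 0.00066), from 600, 645 and 536 to 1418, 1397 and 1181. Adamts3, a procollagen N-proteinase, rose by 1.63 and lost the call without P3 replicate 1 (1.36) or P7 replicate 1 (1.46). Angptl7 read 226, 342 and 176 at P3 and 1829, 447 and 2522 at P7, a rise of 2.34 (SE 0.55, adjusted p = 0.0089); its low P7 value was on replicate 2, the array with the lowest Col1a1.

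Genes of fetal growth and of the periocular mesenchyme, the neural crest tissue from which stroma and endothelium arise, fell in a few members. Igf2, the imprinted fetal growth factor, read 3625, 1883 and 2303 at P3 and 637, 714 and 849 at P7, and fell by 1.76 (SE 0.40, adjusted p = 0.00696), as 1 of 25 fetal growth and imprinted genes tested. Sox4, a factor of immature mesenchyme, read 650, 544 and 646 at P3 and 206, 184 and 254 at P7, and fell by 1.45 (SE 0.34, adjusted p = 0.00915). Foxc2, a forkhead factor of the same tissue, fell by 1.92 (SE 0.58, adjusted p = 0.0332). Without each array in turn its adjusted p was 0.0564 to 0.129 by limma, while Sox4 passed without each of them. These were the 2 lower genes among 19 periocular regulators tested. The Wnt antagonist Sfrp2 fell by 1.44 (SE 0.46, adjusted p = 0.0446) as the only called gene of 28 in the Wnt list. It lost the call without any array other than P7 replicate 3, with differences between -1.55 and -1.25. In the Notch (17 tested) and the TGF-beta and BMP (34 tested) lists none was called by limma, with 2 higher and 1 lower, and 4 higher and 3 lower, at an unadjusted p under 0.05. The shares of all genes at that level were 19% higher and 8.35% lower.

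Cell division genes did not change by the rule. Of 33 DNA replication genes 0 were called by limma, with 3 higher and 2 lower at an unadjusted p under 0.05, and of 34 mitosis genes 0 were called, with 1 lower at that level. Among all genes 19% were higher and 8.35% lower at that level. Only 6 of the 34 mitosis genes had a difference above 0, against 56.7% of all genes, and the median was -0.14. Mki67, the proliferation marker Ki-67, read 1016, 1255 and 1176 at P3 and 925, 1010 and 689 at P7, with a difference of -0.40 (adjusted p = 0.237).

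In glycolysis and the hypoxia response 2 of 29 genes rose and 1 fell. Egln3, an oxygen sensor of the hypoxia response, read 1192, 1094 and 945 at P3 and 2107, 3089 and 2513 at P7, a rise of 1.23 (SE 0.20, adjusted p = 0.00057). Car9, a carbonic anhydrase at the cell surface, rose by 1.08 (SE 0.14, adjusted p = 2.4e-05), and Ndrg1, a stress response gene, fell by 1.13 (SE 0.21) and by 0.99 without P3 replicate 3. The carbonic anhydrase family, which hydrates carbon dioxide, split: Car3 rose by 2.42 (SE 0.77), while Car6, the secreted enzyme, fell by 1.44 and Car8, a related protein without enzyme activity, fell by 1.00. Of the family Car9 alone kept its call without each array; the call of Car8 was lost without any of the 6 (adjusted p 0.06 to 0.118 by limma), that of Car3 without any but P7 replicate 3 (0.0756 to 0.167), and that of Car6 without P3 replicate 1, P3 replicate 2, P7 replicate 1 or P7 replicate 2 (0.0535 to 0.0858).

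Of the 15 named genes with the largest fall, 2 were on the retina list (Otx2 and Neurod1), and the pigment cell (Dct), peripheral nerve (Fabp7) and vessel (Emcn) lists held 1 each. Neurod4, a proneural factor of the developing retina, read 1205, 2239 and 5242 at P3 and 61.6, 91.1 and 145 at P7, and fell by 4.47 (SE 0.74, adjusted p = 0.00057). Otx2, a factor of photoreceptors and pigment epithelium, read 1191, 2033 and 3531 at P3 and 84.3, 211 and 157 at P7, and fell by 3.70 (SE 0.68, adjusted p = 0.00138). Fabp7, a fatty acid binding protein of glia and retinal progenitors, read 2826, 3127 and 9264 at P3 and 333, 575 and 201 at P7, and fell by 3.62 (SE 0.41, adjusted p = 3.8e-06). In each of them P3 replicate 3 was the highest array. All P3 arrays were above all P7 arrays, which the choice of these genes required. Without P3 replicate 3 the differences were -3.91, -3.31 and -3.07 and still passed.

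**Figure D4:**
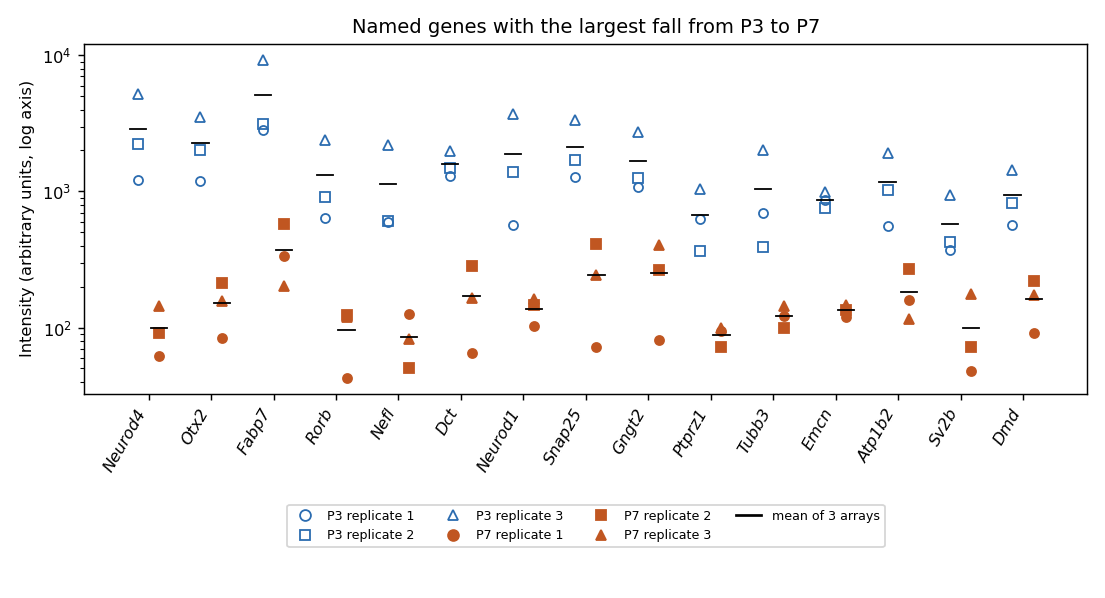
Intensity (log axis) of the 15 named genes with the largest fall, on each P3 array (open symbols) and P7 array (filled symbols), with bars at the means. All P3 arrays lie above all P7 arrays, as the rule that chose these genes required. P3 replicate 3 (open triangles) is the highest for each of the 15 genes.

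The other large falls were Rorb, Nefl, Dct, Neurod1, Snap25, Gngt2, Ptprz1, Tubb3, Emcn, Atp1b2, Sv2b and Dmd, with differences from -3.45 to -2.41. They include the neuronal cytoskeleton genes Nefl and Tubb3, the synaptic genes Snap25 and Sv2b and the cone transducin subunit Gngt2. Without P3 replicate 3, Nefl, Neurod1, Snap25, Gngt2, Tubb3, Dmd and Sv2b lost the call, at -2.67, -2.58, -2.80, -2.38, -1.98, -2.05 and -2.0. Without P7 replicate 1, Neurod1 (-3.09), Snap25 (-2.55), Gngt2 (-2.18), Sv2b (-2.07) and Dmd (-2.08) lost it too. Nefl (-3.01), Gngt2 (-2.94) and Sv2b (-2.30) also lost it without P7 replicate 2, and Gngt2 (-2.94), Sv2b (-2.57) and Dmd (-2.46) without P3 replicate 2.

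Of 13 retina genes 4 were lower and 0 higher, with a median of -1.03: Otx2, Neurod1, Crx and Rlbp1. The mean log2 level of the list was 7.75, 8.14 and 8.67 at P3 and 6.81, 7.17 and 6.95 at P7. Its summed intensity was 4013 to 12590 at P3 and 1357 to 1925 at P7. Rhodopsin, the photopigment of rods, did not pass the filter on low values and was not tested. The retina count was 2 without P3 replicate 3 or P7 replicate 1. With the level of this list on each array as a covariate, a fit chosen after seeing the data, 17 genes were called lower and 87 higher. Members of a list help make its level, so the loss of their own calls in such a fit is in part built in. With the pigment cell level added as well, 3 were called lower and 25 higher, among them Aldh3a1 at 3.59, Tmprss11d at 3.61, Lypd2 at 2.97, Krt12 at 1.61 and Per3 at 1.13.

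The pigment cell list had 6 lower and 0 higher genes of 9, with a median of -1.61 and none above 0. Dct, a melanin synthesis enzyme, read 1293, 1492 and 1967 at P3 and 65.1, 282 and 165 at P7, and fell by 3.27 (SE 0.67, adjusted p = 0.00351). Tyrp1, Mlana, Pmel, Tyr and Gpnmb fell by 2.10, 1.95, 1.91, 1.61 and 1.36. The summed intensity of the list was 5912 to 9123 at P3 and 1762 to 2621 at P7. Tyrosinase (Tyr) and Pmel lost the call without P3 replicate 2 (-1.61 and -1.91), P3 replicate 3 (-1.36 and -1.62) or P7 replicate 1 (-1.60 and -1.44), Tyr also without P7 replicate 2 (-1.65), and Gpnmb without P7 replicate 1 (-1.20), which left 3 called genes of this list without P7 replicate 1 and 4 without P3 replicate 2 or 3.

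In the vessel list 1 of 10 genes was called lower. None of the 10 had a difference above 0, and the median was -0.73. At an unadjusted p under 0.05 by limma 8 were lower, against 8.35% of all genes. Emcn, the endothelial sialomucin endomucin, read 863, 755 and 988 at P3 and 120, 134 and 147 at P7, and fell by 2.56 (SE 0.62, adjusted p = 0.0101). Cdh5, the cadherin of vascular endothelium, differed by -1.21 (adjusted p = 0.0811) and Pecam1 by -0.78 (adjusted p = 0.054). The summed intensity of the vessel list was 5544 to 5848 at P3 and 1990 to 3521 at P7. The healthy cornea has no vessels, and the part of vascular tissue in the result was not tested.

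Of 20 lens genes 0 were called by limma, with 1 lower at an unadjusted p under 0.05. The median was -0.62 and the summed intensity 8272 to 13360 at P3 and 5943 to 6204 at P7. The mean log2 level of this list was 8.47 to 9.04 at P3 and 7.82 to 7.85 at P7. On the P14 arrays it was 7.47, 10.85 and 8.61. That spread enters the test, so the lack of calls does not show that lens genes were unchanged. Of 12 peripheral nerve genes Fabp7 alone was called lower, 2 had a difference above 0, and 3 were lower and 1 higher at an unadjusted p under 0.05. The median difference of the nerve list was -0.16. Its mean log2 level was 9.00 to 9.05 at P3 and 8.61 to 8.64 at P7, without overlap. Its summed intensity was 9932 to 15820 at P3 and 5812 to 7522 at P7. Both levels include Fabp7, which alone read 2826, 3127 and 9264 at P3 and 333, 575 and 201 at P7. They therefore do not show a fall of the list as a whole. Sox10, the Schwann cell factor, differed by -0.08 (adjusted p = 0.734). None of 15 skeletal muscle, 6 blood and 19 leukocyte genes was called by limma, with 0, 0 and 3 at an unadjusted p under 0.05. Of all genes, 19% were higher and 8.35% lower at that unadjusted level. In all, 12 of the 82 lower genes and 1 of the 175 higher genes (Aqp5, on the conjunctiva and gland list) were members of a list of another tissue or cell type. These lists held from 6 (blood) to 20 (lens) tested genes each. Over all genes tested, 0.631% were called lower and 1.35% higher.

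The age means on either side of this step show how the P7 levels relate to the neighbouring ages. The P14 and E17.5 values do not enter the P7 against P3 difference itself. These arrays did share in the estimate of spread, the filter on low values and the choice of probe set. In P14 against E17.5 limma called 857 genes (6.59%), 511 higher (3.93%) and 346 lower (2.66%). Of the 175 genes higher at P7 than at P3, 165 were above 0 in that comparison (94.3%, against 52.5% of all genes) and 124 were called higher (70.9% of the 175 and 24.3% of the 511). Of the 82 lower genes 71 were below 0 (86.6%, against 47.5% of all genes) and 38 were called lower (46.3% of the 82 and 11% of the 346). None was called in the opposite direction.

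Aldh3a1 was 319 ± 51.6 (SD, n = 3) at E17.5 and 6414 ± 1312 at P14, and its differences in the steps before and after were -0.03 (adjusted p = 0.94 by limma) and 0.21 (adjusted p = 0.93). Adh7 was 427 ± 58.6 and 4216 ± 1336, and Tmprss11d 53.2 ± 28.2 and 751 ± 241. The pigment gene Dct, 2620 ± 1003 at E17.5, and Igf2, 5017 ± 1225, were 397 ± 202 and 931 ± 53.3 at P14. Neurod4 differed from these: it was 481 ± 395 at E17.5 and 247 ± 189 at P14, a difference of -0.76 (adjusted p = 0.53 by limma), and rose by 2.70 from E17.5 to P3 (adjusted p = 0.02). Its high level was thus seen at P3 and not at the ages on either side. This was less clear for Crx, which was 134 ± 27.4 at E17.5, 523 ± 387 at P3 and 291 ± 198 at P14. The mean log2 level of the retina list was 6.9, 8.87 and 8.06 on the P14 arrays, so it varied among arrays of the same age and was not high at P3 alone.

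**Figure D5:**
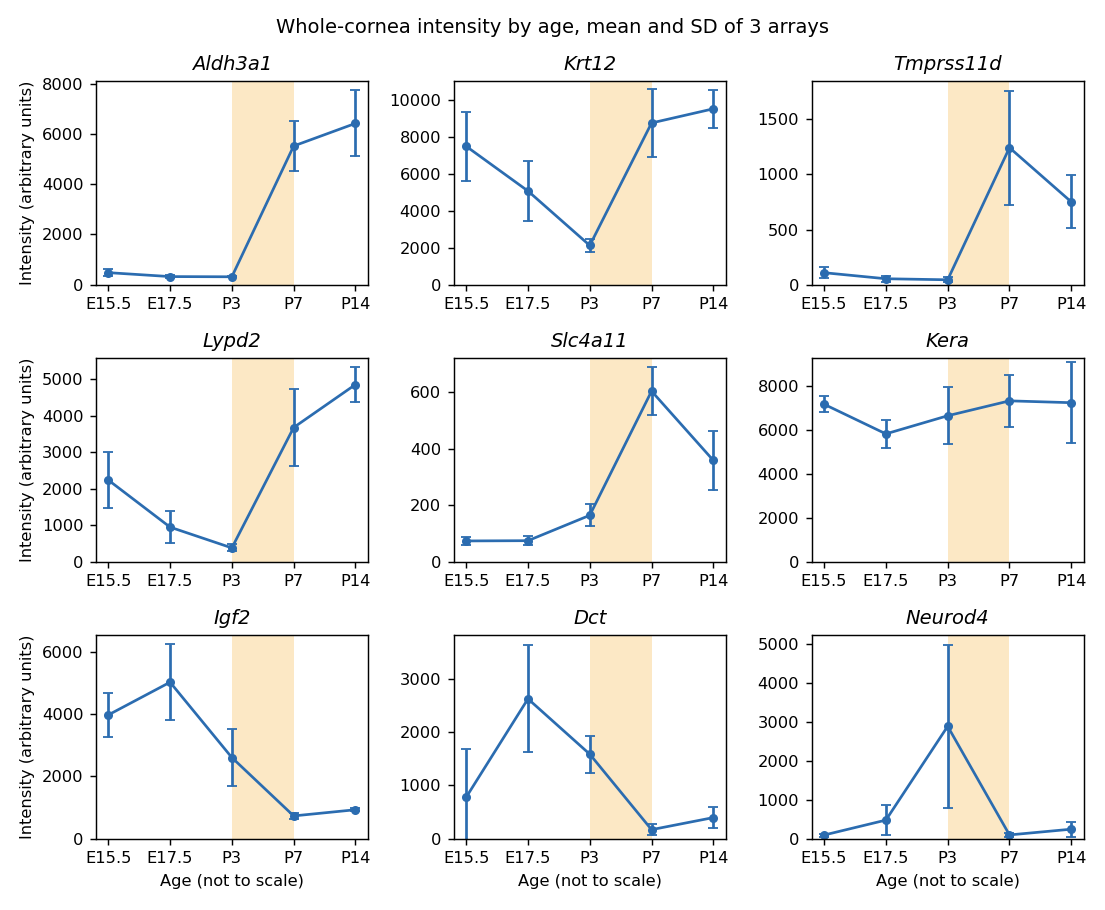
Mean intensity (linear axis from 0; error bars are the SD of 3 arrays, drawn down to 0 at most) of 9 genes at E15.5, E17.5, P3, P7 and P14 in whole cornea, with ages spaced evenly and the step from P3 to P7 shaded. Aldh3a1 and Tmprss11d rise within the shaded step, Krt12 and Lypd2 rise there from a low at P3, Kera stays level, and Neurod4 is high at P3 with a wide SD.

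An isolated P28 epithelium and a P7 stroma taken by laser capture, each measured on 1 array, allow a description of the layer in which the called genes read higher, with no test. Of the 175 higher genes 147 (84%) read higher on the epithelium array, against 49.5% of all genes, and 79 did so by at least 1 log2 unit, against 3.2% of all genes. Of the 82 lower genes 10 (12.2%) read higher on the epithelium array and 19 read higher on the stroma array by at least 1 log2 unit, against 3.4% of all genes. Aldh3a1 read 10390 on the epithelium and 2028 on the stroma array, Tmprss11d 2188 and 232, and Hlf 5065 and 1086. Igf2 read 586 and 2335, and Slc4a11 545 and 799. Nostrin, at 228 and 225, was below the median of both. The 2 arrays differ in age as well as in layer and had a higher median (318.0 and 321.5) than the whole-cornea arrays. The stroma array also held lens and skin genes, with Cryaa (alpha A crystallin) at 6898 and Krt10 at 2531. Krt10 read 338 or less on the 6 arrays compared here. Each of the 15 genes with the largest fall read higher on the P7 stroma array than the whole-cornea P7 mean. The share of all genes that did so was not counted, and these genes were chosen as low at P7. Rorb (288) and Emcn (258) lay below the stroma array's own median, so the higher median alone can raise such readings. Fabp7 read 3664 against 370, Snap25 2332 against 243, Tubb3 1765 against 122 and Dct 981 against 171. The cause of this was not tested.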

How the data were processed

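Total RNA of wild-type CB6 corneas was measured on Affymetrix gene arrays. The deposited values are 1 linear intensity per probe set and array, for which the submitters' processing notes name PLIER and the Affymetrix Expression Console 1.1; any further normalization is not given in the sources used here. Of 35557 probe sets on 34 arrays, 21789 had 1 gene symbol in the platform annotation, 1621 several and 12147 none. Probe sets with 1 symbol that lay above their array's median on 2 or more of the 32 whole-cornea arrays were kept (14329), and the one with the highest mean represented each of 12998 genes. No other scaling was applied.

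Values were put on the log2 scale after adding 16, and the fold of low genes is thereby understated. A linear model with 1 mean per age (12 ages, 32 arrays) was fitted with limma 3.58.1 in R 4.3.3 (20 residual and 4.1 prior degrees of freedom). All tests are two-sided, and p-values were adjusted by Benjamini-Hochberg over all genes; adjusted p-values and SEs in the text come from this fit. The number of arrays limits the precision. The procedure was tested on simulated data.

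The comparison, the 44 gene lists and the rule for named genes were chosen with earlier results of these data known. Named are the 15 largest called rises and falls whose arrays do not overlap, without unnamed transcripts, members of the lists, and families with at least 3 called members. Of such families the symbol stems Slc, Atp, Fam and Fabp were not described as families. Motifs were searched in RefSeq promoter windows (GRCm38.p6). Alternatives covered filters, offsets, scaling, moderation, weights, joining of probe sets, ages fitted, thresholds, a replicate block and each array left out; fits with the retina, pigment cell or Xist level as a covariate were added after seeing the data. The replicate numbers did not pair the arrays: deviations of arrays with the same number correlated at -0.233 to -0.174.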

Additional observations from a re-analysis of the deposited data

How the results depend on the processing

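Against the 257 genes called (175 higher, 82 lower), other filters, offsets, moderation, weights, ways to join probe sets and choices of ages gave totals between 193 and 314, and quantile normalization 364. The lower count moved by more than 1.5 times with genes kept by a mean above the median of gene means (37), quantile normalization (144) and a difference of at least 1 with no overlap in place of a p (127). With the adjusted p alone there were 1451 genes, 1107 higher and 344 lower. With the retina level as a covariate 104 were called (87 and 17), and with the retina and pigment cell levels 28 (25 and 3). In the latter fit Pmel and Tyr turned to 0.33 and 0.43. Both belong to the pigment cell list whose level was the covariate, so the loss of their fall is in part built in. The median SE was 1.16 and 1.43 times that without covariates. With the Xist level 259 were called. The 4 sex-linked genes tested had a median difference of 1.11 from P3 to P7, and 0 were called. Each array left out in turn gave totals of 176 to 285, with 124 to 215 higher and 39 to 79 lower. Of 106 named genes called, 59 kept the call without each array in turn, 48 with the retina level, 20 with the retina and pigment cell levels and 99 with the Xist level. P14 against E17.5, with 857 genes called, gave 745 to 876 without 1 array. With the replicate block 248 genes were called (171 and 77), 247 of them shared with the fit without it; the numbers do not pair the arrays. The causes of these differences were not tested.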

Other observations

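Of 19 cholesterol synthesis genes tested, 0 were called by limma. A difference above 0 was seen in 18 of them, against 56.7% of all genes, and the median was 0.39 against 0.06. At an unadjusted p under 0.05, 9 were higher and 0 lower, against 19% and 8.35% of all genes. Fdps, the farnesyl diphosphate synthase, read 879, 868 and 755 at P3 and 1499, 1858 and 1616 at P7, a difference of 0.97 (SE 0.20, adjusted p = 0.00346). Sqle, the squalene epoxidase, read 724, 768 and 758 at P3 and 1399, 1274 and 1265 at P7, a difference of 0.79 (SE 0.19, adjusted p = 0.00948). Both separated the ages on every array. Fatty acid synthesis had 0 of 17 genes called by limma, with 6 higher and 0 lower at that unadjusted level and a median of 0.24.

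Of the 13 antigen presentation genes tested, 1 was called higher (Psmb9), 11 had a difference above 0 and 7 were higher at an unadjusted p under 0.05. Of all genes 56.7% had a difference above 0, and 19% were higher and 8.35% lower at that level by limma. Psme1, a proteasome activator subunit, read 2043, 1730 and 1373 at P3 and 2326, 2757 and 2640 at P7, a difference of 0.60 (adjusted p = 0.00468 by limma). In the interferon response list 0 of 21 genes were called by limma, with 4 higher and 1 lower at that level. Matrix proteases (0 of 19 called by limma, 1 higher and 0 lower at that level) and immediate-early genes (0 of 13, with 0 higher and 1 lower) showed no called change. Keratan sulfate sulfotransferase Chst5 read 1189, 1648 and 980 at P3 and 2891, 1786 and 2733 at P7, a difference of 0.95 (adjusted p = 0.0156 by limma), with the lowest P7 value on replicate 2.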
